A study of Mus musculus with 14 samples.

Results

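The 10 genes followed here belong to interleukin-6 (IL-6) family and colony-stimulating factor (CSF) receptor signalling and were measured by RNA sequencing in brain tissue of 14 female mice: the receptor chains Osmr, Lifr, Il6st, Il6ra, Cntfr, Csf3r, Csf2ra and Csf2rb, the transcription factor Stat3 and the feedback inhibitor Socs3. These 10 genes were taken by name from the 43346 genes of the count table, and each passed the filter on low counts in every comparison. Osmr and Csf3r were picked because their levels were much higher in APP/PS1 mice in these same data, so their values are given as a description without a test, and counts of genes passing the test refer to the 8 others. The mice were 4 non-transgenic (NTG) littermates, 5 double transgenic APP/PS1 mice carrying mutant human APP and PS1 and 5 APP/PS1 mice given CP2, an inhibitor of mitochondrial complex I, all of the strain labelled C57BL/6;SJL-Tg and all 23 months old. CP2 was given at 25 mg/kg/day with 0.1% PEG in the drinking water from 9 months of age, that is for 14 months. The other mice are labelled non-treated, and the treatment protocol describes their water as containing the 0.1% PEG vehicle. A section of brain spanning hippocampus and cortex was sequenced from each mouse, without sorting of cells. The promoter that drives each transgene is not given in the sources used here, and the comparison of genotypes cannot tell the transgenes from anything else that differs between the mice carrying them and their littermates. Mice are named by the numbers in their labels, 7 to 10 for NTG, 16 to 20 for APP/PS1 and 21 to 25 for CP2-treated APP/PS1.

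Cytokines of the IL-6 family signal through a shared transducer chain, gp130, which Il6st encodes. Some cytokines have a receptor chain of their own, such as the IL-6 receptor (Il6ra) or the ciliary neurotrophic factor receptor (Cntfr). The leukaemia inhibitory factor receptor (Lifr) and the oncostatin M receptor (Osmr) are signalling chains that pair with gp130. The assembled complex activates Janus kinases that phosphorylate STAT3. STAT3 in turn switches on Socs3, whose product binds the receptor complex and damps the signal. Receptors for granulocyte CSF (Csf3r) and granulocyte-macrophage CSF (Csf2ra with the shared beta chain Csf2rb) also act through Janus kinases and STAT proteins and are best known from myeloid cells, which in the brain parenchyma are the microglia. In astrocytes, STAT3 is known as a driver of the reactive state with its high GFAP.

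Promoter sequences of 3 of the genes are shown, since Osmr and Csf3r had the highest ratios of APP/PS1 to NTG and Socs3 is the textbook target of STAT3. Each window runs from 250 bases before to 50 bases after a transcription start in RefSeq on GRCm38.p6, 5′ to 3′ on the strand of the gene. Capitals mark the letters TTCNNNGAA, the core pattern that STAT proteins recognise, which reads the same on both strands.
Osmr, chr15:6874264-6874563, minus strand: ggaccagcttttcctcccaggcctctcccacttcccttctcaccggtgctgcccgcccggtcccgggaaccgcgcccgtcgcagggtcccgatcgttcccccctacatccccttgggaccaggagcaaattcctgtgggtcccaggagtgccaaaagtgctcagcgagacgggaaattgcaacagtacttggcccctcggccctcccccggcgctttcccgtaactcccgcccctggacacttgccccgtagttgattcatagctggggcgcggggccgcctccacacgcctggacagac
Csf3r, chr4:126024409-126024708, plus strand: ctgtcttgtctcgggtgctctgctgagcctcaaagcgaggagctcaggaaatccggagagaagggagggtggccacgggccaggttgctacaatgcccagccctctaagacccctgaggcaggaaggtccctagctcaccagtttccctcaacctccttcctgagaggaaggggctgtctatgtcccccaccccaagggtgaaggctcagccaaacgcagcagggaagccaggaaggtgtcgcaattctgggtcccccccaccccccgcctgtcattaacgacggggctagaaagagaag
Socs3, chr11:117969317-117969616, minus strand: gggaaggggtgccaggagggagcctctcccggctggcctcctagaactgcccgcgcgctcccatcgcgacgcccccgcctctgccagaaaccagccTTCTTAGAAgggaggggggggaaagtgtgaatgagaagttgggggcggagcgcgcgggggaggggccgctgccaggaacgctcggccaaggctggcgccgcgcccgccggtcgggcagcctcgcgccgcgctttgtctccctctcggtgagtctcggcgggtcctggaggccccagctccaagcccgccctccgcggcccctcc
The Socs3 window held the match TTCTTAGAA, which begins at position -154 relative to the start. It was the only match among the 15 windows found for 9 of the 10 genes, Csf2rb having no entry, and 8.3% of all 32851 promoter windows of this length hold the pattern. The stricter pattern TTCCNGGAA, a subset of it found in 1.15% of windows, and the pattern GAGGAAGT of the myeloid factor PU.1 (ACTTCCTC on the other strand), found in 3.2%, had no match in these 15 windows. A match describes the letters in the window and shows no binding.

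Libraries held between 70548781 and 106235625 counts on genes, so that even the member with the lowest counts, Csf2rb, had at least 116 counts in every mouse. The neuronal gene Snap25, which encodes a synaptic vesicle fusion protein, was abundant in all libraries, between 1524 and 1870 CPM (counts scaled to library size). This shows neuronal tissue but cannot tell brain regions apart. One APP/PS1 library, mouse 16, stood apart. Its summed level of 10 striatal marker genes was 3181 CPM, against 350 to 584 CPM in the 13 other mice, and it had the lowest value of the 5 APP/PS1 mice for 8 of the 10 genes described here, an order that 31.6% of all genes tested share. Values without mouse 16 are therefore given for some results, and for others a range over alternative fits that include leaving it out.

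The question of the first comparison was how the brain of APP/PS1 mice differs from that of NTG littermates. Osmr and Csf3r stood 7.03-fold and 4.10-fold higher in APP/PS1 mice. The 8 other genes were not picked for such a rise, but they were chosen with earlier results of these data known. Among them Csf2rb, Socs3 and Stat3 rose, Cntfr fell slightly, and Csf2ra, Il6ra, Il6st and Lifr did not pass the test. In bulk tissue, more cells of a type and more RNA per cell cannot be told apart. These 4 of 8 genes passed at an adjusted p under 0.05 (edgeR quasi-likelihood test, Benjamini-Hochberg over all genes tested), where 5.68% of the 16417 genes tested did, 4.34% as higher and 1.34% as lower. The median log2 fold change of the 8 genes was 0.42, and that of all genes tested was -0.0042. No CPM value of one group reached into the other for 4 of the 8 genes, and 10% of all genes tested were separated in this way.

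**Figure D1:**
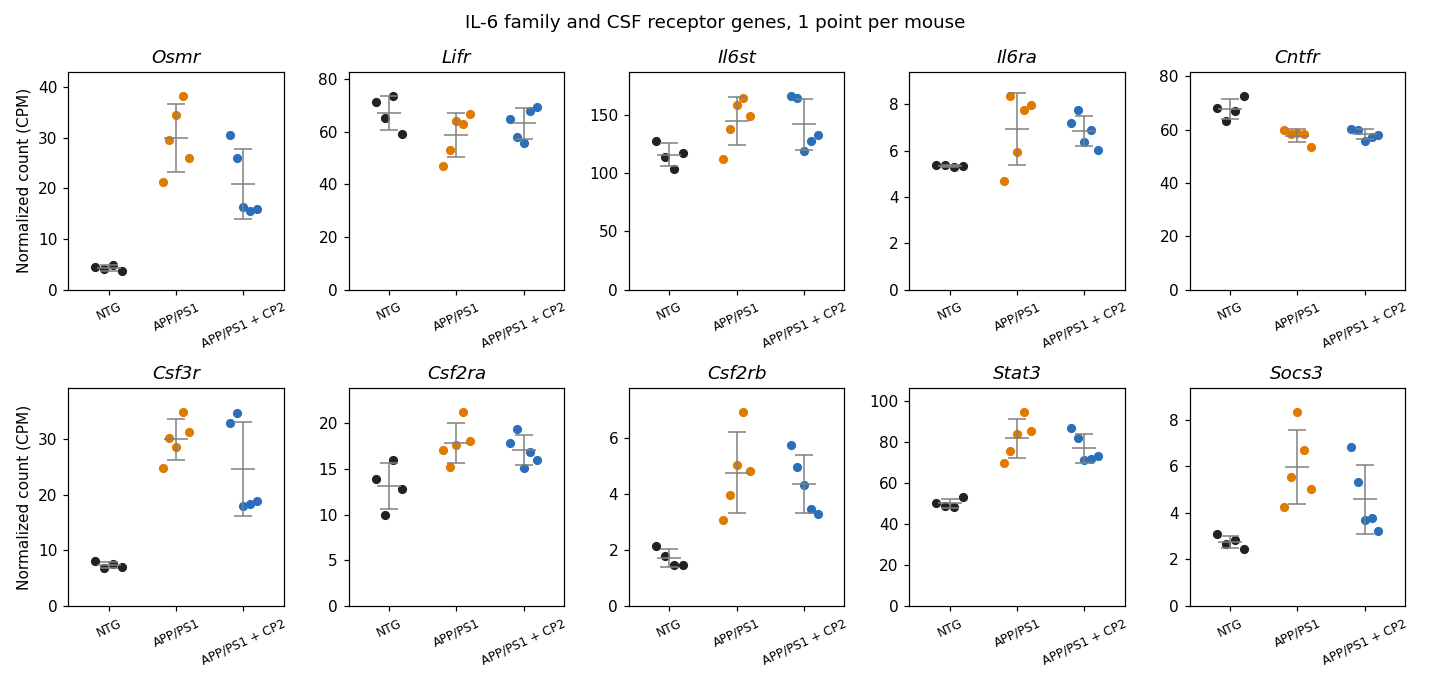
Normalized counts (CPM, vertical axes, each starting at 0) of the 10 genes, with 1 point per mouse, ordered by mouse number within NTG (black, n = 4), APP/PS1 (orange, n = 5) and CP2-treated APP/PS1 (blue, n = 5); the grey bars give mean ± SD. Osmr and Csf3r lie between 3.71 and 8.04 CPM in NTG mice and between 15.6 and 38.3 CPM in every APP/PS1 mouse, treated or not, while Lifr overlaps among all groups.

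Osmr (ENSMUSG00000022146, mm10 chromosome 15, 6813577 to 6874969) encodes the chain that makes gp130 responsive to oncostatin M. Its level was 4.40, 4.09, 4.93 and 3.71 CPM in NTG mice 7 to 10, and 21.3, 29.5, 34.5, 38.3 and 26.0 CPM in APP/PS1 mice 16 to 20. Every APP/PS1 mouse was thus several times above every NTG mouse, and the lowest of them was mouse 16. The log2 fold change was 2.81 ± 0.18 (SE), and it was 2.91 without mouse 16. Lifr (ENSMUSG00000054263, chromosome 15, 7129559 to 7197489), which encodes the related chain used by leukaemia inhibitory factor and, together with gp130, by several other family members, did not pass the test. It had 71.1, 65.2, 73.5 and 59.1 CPM in NTG mice and 47.0, 53.2, 64.1, 62.8 and 66.7 CPM in APP/PS1 mice, with overlapping groups. The log2 fold change of Lifr was -0.19 ± 0.11 (SE, adjusted p = 0.424, edgeR; 95% interval -0.43 to 0.06). On the authors' RPKM scale, which divides by gene length and so allows levels of different genes to be compared, Osmr made up 5.15% ± 0.18 (SD, n = 4) of the Osmr and Lifr sum in NTG mice and 30.1% ± 3.68 (SD, n = 5) in APP/PS1 mice.

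Il6st (ENSMUSG00000021756, chromosome 13, 112464070 to 112510086), the shared gp130 chain, had 128, 114, 104 and 118 CPM in NTG mice and 112, 138, 159, 164 and 149 CPM in APP/PS1 mice. Only mouse 16 of the APP/PS1 mice lay within the NTG range. The difference of 0.33 ± 0.11 log2 units (SE) missed the threshold (adjusted p = 0.140, edgeR), and it passed in 3 of 16 alternatives: without mouse 16 (log2 fold change 0.41, adjusted p = 0.00884, edgeR), with DESeq2 (adjusted p = 0.0465) and with limma-voom (adjusted p = 0.0131). Il6ra (ENSMUSG00000027947, chromosome 3, 89869324 to 89913162), the chain that binds IL-6 itself, was very even in NTG mice at 5.39, 5.38, 5.31 and 5.32 CPM and spread over 4.69, 8.35, 5.93, 7.73 and 7.96 CPM in APP/PS1 mice. Mouse 16 lay below and the 4 others above all NTG values. The log2 fold change of Il6ra was 0.38 ± 0.16 (SE, adjusted p = 0.239, edgeR) with mouse 16 and 0.49 (adjusted p = 0.0211, edgeR) without it. Il6ra shares 242 exon bases, or 7.24% of its length, with an antisense gene, and without a strand record reads of the 2 genes cannot be told apart there.

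Cntfr (ENSMUSG00000028444, chromosome 4, 41657498 to 41697089), which encodes the membrane-anchored receptor for ciliary neurotrophic factor and is found mainly on neurons, was the member that fell. It had 68.3, 63.2, 67.1 and 72.6 CPM in NTG mice and 59.8, 58.4, 58.6, 58.4 and 53.5 CPM in APP/PS1 mice. The groups did not overlap, although they were only 3.40 CPM apart at their nearest mice. The log2 fold change was -0.22 ± 0.051 (SE, adjusted p = 0.0289, edgeR). The call was lost, with adjusted p between 0.0601 and 0.112 (edgeR), without NTG mouse 7, 9 or 10 or without APP/PS1 mouse 17, 18 or 20, the log2 fold change then lying between -0.23 and -0.18. The summed level of 10 neuronal markers was 7868 to 9411 CPM in NTG mice and 7534 to 9396 CPM in APP/PS1 mice, and none of the 10 passed the test.

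Of the CSF receptors, Csf3r (ENSMUSG00000028859, chromosome 4, 126024550 to 126044440), the granulocyte CSF receptor, had 8.04, 6.72, 7.52 and 7.07 CPM in NTG mice and 24.8, 30.1, 28.7, 34.8 and 31.3 CPM in APP/PS1 mice. The groups were far apart, and the log2 fold change was 2.04 ± 0.11 (SE). Csf2rb (ENSMUSG00000071713, chromosome 15, 78325990 to 78351000), the signalling beta chain shared by receptors for granulocyte-macrophage CSF, IL-3 and IL-5, had 2.12, 1.77, 1.47 and 1.47 CPM in NTG mice and 3.05, 3.96, 5.05, 6.92 and 4.80 CPM in APP/PS1 mice. It rose 2.80-fold, a log2 fold change of 1.49 ± 0.24 (SE, adjusted p = 0.00469, edgeR). Its near-identical neighbour Csf2rb2, the mouse beta chain specific to IL-3, rose by a log2 fold change of 1.47 ± 0.23 (SE, adjusted p = 0.00402, edgeR), and reads of the pair may have been divided between them or lost, so that their levels are uncertain.

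Csf2ra (ENSMUSG00000059326, chromosome 19, 61224402 to 61228418), the alpha chain that gives the receptor its specificity for granulocyte-macrophage CSF, had 13.8, 9.94, 15.9 and 12.8 CPM in NTG mice and 17.03, 15.2, 17.6, 21.2 and 18.1 CPM in APP/PS1 mice. Only mouse 17 of the APP/PS1 mice fell inside the NTG range. The log2 fold change of 0.45 ± 0.14 (SE) missed the threshold (adjusted p = 0.0990, edgeR). It passed with DESeq2 (adjusted p = 0.0231) and when the 3 groups shared one edgeR fit (adjusted p = 0.0423).

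Stat3 (ENSMUSG00000004040, chromosome 11, 100885098 to 100939540) had 50.5, 48.8, 48.2 and 53.3 CPM in NTG mice and 69.7, 75.6, 84.0, 94.6 and 85.3 CPM in APP/PS1 mice. All APP/PS1 mice were above all NTG mice, and the gene rose 1.64-fold, a log2 fold change of 0.71 ± 0.089 (SE, adjusted p = 0.00120, edgeR). Its exons share 72 bases with those of Stat5a on the other strand. Socs3 (ENSMUSG00000053113, chromosome 11, 117966079 to 117970047), the inhibitor whose promoter window held the STAT pattern shown above, had 3.08, 2.66, 2.83 and 2.46 CPM in NTG mice and 4.22, 5.54, 8.31, 6.71 and 5.01 CPM in APP/PS1 mice. It rose 2.17-fold, a log2 fold change of 1.12 ± 0.19 (SE, adjusted p = 0.00672, edgeR). Stat3, Socs3 and Csf2rb kept their calls in all 16 alternative fits.

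Some marker genes of glial cells, endothelium and red blood cells also differed between APP/PS1 and NTG mice. Of 10 microglial markers 7 rose and none fell, and of 10 markers of plaque-associated microglia 8 rose. Their sums were 308 to 327 CPM in NTG and 558 to 759 CPM in APP/PS1 mice for the first list, and 533 to 615 and 1126 to 1878 CPM for the second. Of 7 tested markers of reactive astrocytes 6 rose, with sums of 397 to 606 CPM in NTG and 1180 to 3007 CPM in APP/PS1 mice, whereas of 10 general astrocyte markers 3 fell and none rose. Of 5 tested red blood cell genes 2 rose, the haemoglobin genes Hba-a1 and Hba-a2, and the list summed to 82.6 to 152 CPM in NTG and 114 to 475 CPM in APP/PS1 mice. Of 10 endothelial markers 1 rose, with sums of 277 to 298 CPM in NTG and 304 to 399 CPM in APP/PS1 mice. Of 10 oligodendrocyte markers 1 rose, with sums of 5471 to 7917 and 4893 to 7421 CPM. None of the 4 tested genes of monocytes and border macrophages passed, with list sums of 14.6 to 18.9 and 20.04 to 24.6 CPM, nor did the 1 tested lymphocyte gene. The part of these markers in the results was not tested. Csf3r is also a receptor of neutrophils. Of the neutrophil genes listed, Ly6g reached at most 0.0856 CPM in any mouse and Elane 0.0535 CPM. Others were higher, S100a9 reaching 3.14 CPM and S100a8 2.49 CPM, both in the NTG group. The 12 neutrophil genes summed to 2.74 to 12.2 CPM in NTG and 2.68 to 3.87 CPM in APP/PS1 mice, and the 1 that passed the filter, Mmp9, did not pass the test.

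Ordered by RPKM in NTG mice, Cntfr was highest at 19.5 ± 1.71 (SD, n = 4), followed by Il6st at 8.35 ± 0.88, Csf2ra at 5.67 ± 1.10, Lifr at 5.196 ± 0.45 and Stat3 at 4.21 ± 0.32. Csf3r at 1.63 ± 0.15, Il6ra at 1.28 ± 0.039, Socs3 at 0.762 ± 0.072, Csf2rb at 0.286 ± 0.053 and Osmr at 0.282 ± 0.030 followed. Neighbours in this order did not overlap between mice, except Csf2ra with Lifr and Csf2rb with Osmr. In APP/PS1 mice Cntfr at 17.4 ± 1.09 (SD, n = 5) and Il6st at 10.9 ± 1.61 still led, but Csf3r at 6.95 ± 0.86 now lay among Csf2ra and Stat3, and Osmr at 2.07 ± 0.49 among Il6ra and Socs3. Il6st was 29.9 ± 4.94 times the Osmr level in NTG mice and 5.36 ± 0.63 times in APP/PS1 mice.

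The second comparison addressed what CP2 treatment changed in APP/PS1 mice. None of the 8 genes passed the adjusted threshold between CP2 and vehicle, nor did any have an unadjusted p under 0.05 (edgeR). DESeq2 and limma-voom also called 0 of the 8. Over all 16407 genes tested, 0.00609% passed the adjusted threshold, a single gene, and 6.55% had an unadjusted p under 0.05. The groups overlapped for all 10 members, as they did for all but 1.14% of genes tested. The median log2 fold change was -0.044 for the 8 genes and -0.0060 for all genes tested.

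Osmr had 30.5, 26.0, 16.3, 15.6 and 16.03 CPM in CP2-treated mice 21 to 25, where the vehicle-treated mice had 21.3 to 38.3 CPM. Mice 21 and 22 lay inside the vehicle range and mice 23 to 25 below it. The log2 fold change was -0.52 ± 0.22 (SE), and between -0.69 and -0.41 over 17 alternative fits, which include leaving out mouse 16. Csf3r had 33.0, 34.6, 18.04, 18.4 and 18.9 CPM against 24.8 to 34.8 CPM with vehicle, with the same mice inside and below the range. Its log2 fold change was -0.28 ± 0.20 (SE), and between -0.44 and -0.19 over the 17 alternative fits. Mouse 16 had the lowest vehicle value of both genes. Both genes remained well above all NTG values in every treated mouse.

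Socs3 showed the largest estimate among the 8 tested genes. It had 6.84, 5.31, 3.70, 3.78 and 3.23 CPM in CP2-treated mice against 4.22 to 8.31 CPM with vehicle, and mice 23 to 25 again lay below the vehicle range. The log2 fold change of Socs3 was -0.38 ± 0.23 (SE, adjusted p = 0.758, edgeR), and its 95% interval of -0.89 to 0.13 includes both no difference and a marked decrease. Over 17 alternative fits, which include leaving out mouse 16, the estimate lay between -0.57 and -0.23. Csf2rb had 5.73, 4.95, 4.33, 3.47 and 3.29 CPM in treated mice, all within the vehicle range of 3.05 to 6.92 CPM, and its difference of -0.13 log2 units had an interval of -0.61 to 0.35.

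The remaining estimates were small. Stat3 had 86.8, 82.1, 71.2, 71.6 and 73.2 CPM with CP2, and the interval of its log2 fold change ran from -0.28 to 0.11 around -0.088. Il6st had 166, 165, 119, 127 and 133 CPM, with an interval from -0.29 to 0.24. Those for Il6ra ran from -0.35 to 0.31, for Csf2ra from -0.28 to 0.14, for Lifr from -0.12 to 0.33 and for Cntfr from -0.078 to 0.11, the narrowest. Adjusted p-values of these 6 genes lay between 0.832 and 0.982 (edgeR).

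**Figure D2:**
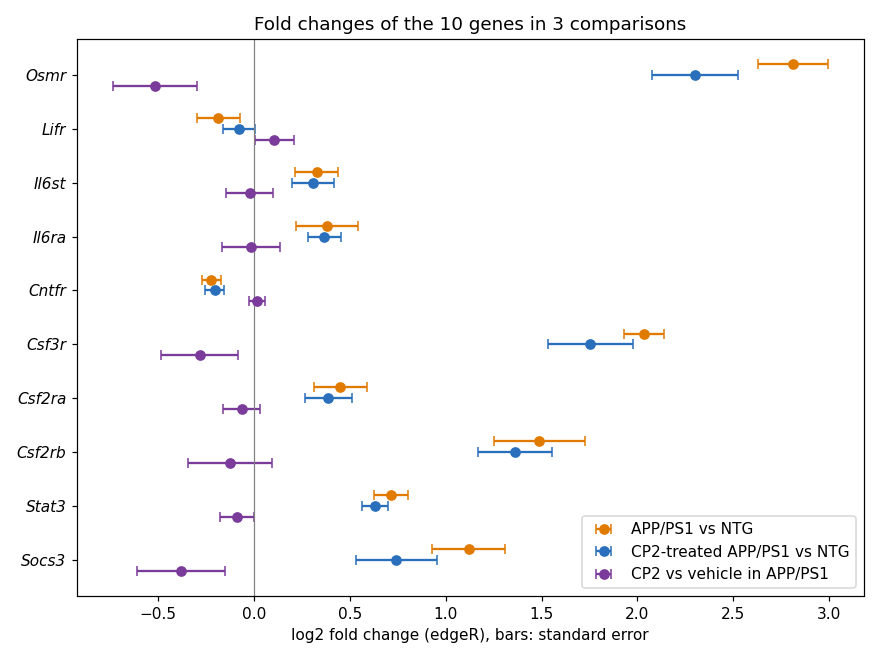
Log2 fold changes from edgeR (horizontal axis) of the 10 genes (vertical axis) in APP/PS1 against NTG (orange), CP2-treated APP/PS1 against NTG (blue) and CP2 against vehicle in APP/PS1 (purple), with bars giving the standard error. The purple points lie between -0.52 (Osmr) and 0.10 (Lifr), while the orange points reach 2.81 for Osmr. The comparisons share mice and are not independent, and Osmr and Csf3r were chosen for their rise in these APP/PS1 mice.

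The 5 treated mice were not alike. Mice 21 and 22 had the 2 highest values of the 5 for 9 of the 10 genes, the exception being Lifr, and the same holds for 16.6% of all genes tested. This order was noticed in the values and carries no test, and the labels give no batch or other distinction among these mice. The reactive astrocyte marker sum was 2337 and 2429 CPM in mice 21 and 22 and 1459, 1452 and 1402 CPM in mice 23 to 25. The sum for plaque-associated microglia was 1497 and 1602 CPM against 1236, 1029 and 1003 CPM, and that for microglia 645 and 674 CPM against 550, 468 and 460 CPM. The part of these markers in the spread was not tested.

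**Figure D3:**
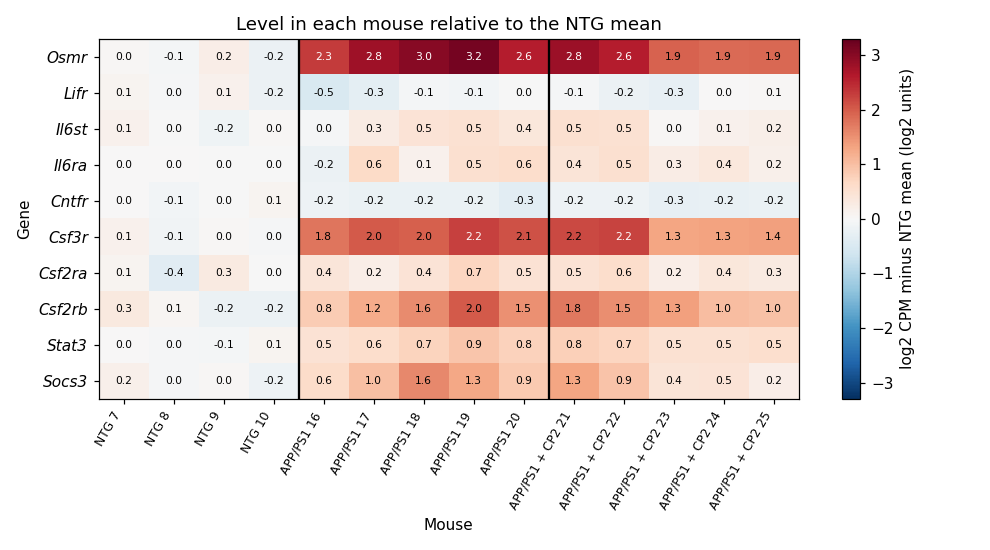
Log2 CPM of each of the 10 genes (rows) in each of the 14 mice (columns) minus the mean of the NTG mice, in log2 units, printed in each cell and coloured from blue (lower) to red (higher); black lines separate the groups. The deepest red is that of Osmr in APP/PS1 mice, followed by Csf3r and Csf2rb, and within the CP2-treated group mice 21 and 22 have the highest values in 9 of the 10 rows, Lifr being the exception.

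Set against the NTG mice, with which the first comparison shares its controls, CP2-treated APP/PS1 mice had higher Osmr (log2 fold change 2.30 ± 0.22, SE) and Csf3r (1.76 ± 0.22). Of the 8 other genes 4 passed the test, 3 as higher and 1 as lower, where 6.02% of 16416 genes did, 4.56% as higher and 1.46% as lower. The groups did not overlap for 5 of these 8 genes, or for 9.61% of all genes tested. Csf2rb rose by a log2 fold change of 1.36 ± 0.19 (SE, adjusted p = 0.00194, edgeR) and Stat3 by 0.63 ± 0.069 (adjusted p = 0.000509, edgeR). Il6ra, at 7.19, 7.74, 6.38, 6.87 and 6.04 CPM in treated mice, rose by 0.37 ± 0.086 (SE, adjusted p = 0.0309, edgeR). Cntfr, at 60.3, 59.95, 55.7, 57.4 and 58.0 CPM, fell by 0.21 ± 0.048 log2 units (SE, adjusted p = 0.0288, edgeR). Il6ra lost its call without NTG mouse 8, 9 or 10 or treated mouse 21, 22 or 24 (adjusted p between 0.0672 and 0.0860, edgeR), and Cntfr without NTG mouse 9 or 10 or treated mouse 24 or 25 (adjusted p between 0.0533 and 0.0710, edgeR).

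Socs3 missed the threshold in treated mice (log2 fold change 0.74 ± 0.21, SE, adjusted p = 0.0662, edgeR) although all 5 lay above the NTG range. It passed without treated mouse 25 (0.84, adjusted p = 0.0408, edgeR) and with DESeq2 (adjusted p = 0.0105). Csf2ra had 17.9, 19.3, 15.1, 16.8 and 16.005 CPM in treated mice and a log2 fold change of 0.39 ± 0.12 (SE, adjusted p = 0.0974, edgeR), which passed with DESeq2 (adjusted p = 0.0306). Il6st had a log2 fold change of 0.31 ± 0.11 (SE, adjusted p = 0.134, edgeR). Lifr, at 64.7, 58.1, 55.7, 67.8 and 69.4 CPM, overlapped with the NTG mice and had a log2 fold change of -0.078 ± 0.083 (SE, adjusted p = 0.661, edgeR). The Osmr share of the Osmr and Lifr sum of RPKM was 21.8% ± 5.95 (SD, n = 5) in treated mice.

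The rest of the pathway was read from 5 lists with 91 genes, chosen with earlier results of these data known. Of the 91 genes 70 passed the filter in APP/PS1 against NTG. Of these, 24 rose, where 4.34% of all genes tested did, and 1 fell, Fosl2, a member of the AP-1 family of transcription factors. The median log2 fold change of the 70 genes was 0.22, against -0.0042 for all genes tested. Between CP2 and vehicle 0 of 71 genes passed the adjusted threshold (edgeR, and likewise DESeq2 and limma-voom), 4 had an unadjusted p under 0.05, which 6.55% of all genes tested had, and the median was -0.066. In CP2-treated APP/PS1 against NTG, 23 of 71 rose, where 4.56% of all genes tested did, and none fell.

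Most ligands were scarce. Of 19 ligands 12 did not reach the filter in any comparison, among them Il6, Il11, Csf2 and Csf3, which encode IL-6, IL-11 and the 2 colony-stimulating factors of the Csf2ra and Csf3r receptors. Il6 had 2 to 14 counts per mouse and Csf3 1 to 6, where 3 counts correspond to 0.0446 CPM in the smallest library. Osm, the ligand of Osmr, was also below the filter, with 2 to 12 counts in NTG, 33 to 71 in APP/PS1 and 33 to 49 in CP2-treated mice, or 0.0852 ± 0.048, 0.560 ± 0.20 and 0.486 ± 0.10 CPM (SD). It was singled out after its values were seen and was not tested.

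Of the 6 ligands tested against NTG 3 rose. Lif, leukaemia inhibitory factor, had a mean of 0.992 ± 0.20 CPM in the 4 NTG mice and of 2.53 ± 0.94 CPM in the 5 APP/PS1 mice (SD) and rose by a log2 fold change of 1.36 ± 0.28 (SE, adjusted p = 0.0175, edgeR), a call lost without NTG mouse 7, 8 or 9 (adjusted p between 0.0505 and 0.0602, edgeR). Clcf1, a further ligand of the CNTF receptor, rose by 1.03 ± 0.14 log2 units (SE, adjusted p = 0.00212, edgeR). Csf1, the macrophage CSF on which microglia depend, had a mean of 25.3 ± 0.70 CPM in NTG and 39.8 ± 5.99 CPM in APP/PS1 mice (SD) and rose by 0.66 ± 0.11 log2 units (SE, adjusted p = 0.00560, edgeR). Il34, the other ligand of the CSF1 receptor, had 38.6 ± 3.66 and 40.2 ± 5.82 CPM (SD) and did not pass (adjusted p = 0.786, edgeR).

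Of 10 further receptors tested 3 rose. Csf1r, the CSF1 receptor of microglia, went from 89.9 to 107 CPM in NTG mice to 172 to 223 CPM in APP/PS1 mice, a log2 fold change of 1.05 ± 0.089 (SE, adjusted p = 0.000175, edgeR). Il3ra, the IL-3 receptor alpha chain, rose by 1.19 ± 0.28 log2 units (SE, adjusted p = 0.0326, edgeR), a call lost without any one of the NTG mice or without APP/PS1 mouse 18 or 20 (adjusted p between 0.0501 and 0.0834, edgeR). Csf2rb2 was the remaining one.

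Among kinases and transducers 6 of 17 rose. Stat6, the transducer of IL-4, rose by 0.42 ± 0.065 log2 units (SE, adjusted p = 0.00380, edgeR). The Src family kinase Lyn, found in myeloid cells, rose by 0.94 ± 0.19 log2 units (SE, adjusted p = 0.0161, edgeR). Jak3, the Janus kinase of haematopoietic cells, rose by 0.72 ± 0.15 (SE, adjusted p = 0.0200, edgeR), while the widely expressed Jak1, Jak2 and Tyk2, which serve gp130, had adjusted p-values of 0.904, 0.165 and 0.510 (edgeR). The calls of Lyn and Jak3 were lost without some single mice, namely NTG 8, 9 or 10 for Lyn (adjusted p up to 0.0524, edgeR) and NTG 7 or 8 or APP/PS1 18 or 20 for Jak3 (adjusted p up to 0.0647, edgeR).

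Of 17 negative regulators 2 rose, both phosphatases of blood-derived and microglial cells: Ptpn6, which encodes SHP-1, by 1.64 ± 0.18 log2 units (SE, adjusted p = 0.000590, edgeR) and Ptprc, which encodes CD45, by 1.52 ± 0.15 (SE, adjusted p = 0.000419, edgeR). None of the 6 other SOCS genes tested, Socs1, Socs2, Socs4, Socs5, Socs6 and Socs7, passed the test in APP/PS1 against NTG, their log2 fold changes lying between -0.24 and 0.24. Socs6, the highest of them at 0.24 ± 0.069 (SE, adjusted p = 0.0749, edgeR), rose in CP2-treated APP/PS1 against NTG (0.25 ± 0.056, SE, adjusted p = 0.0249, edgeR).

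Of 20 tested genes known as STAT3 targets 10 rose and Fosl2 fell, by 0.50 ± 0.11 log2 units (SE, adjusted p = 0.0280, edgeR). Gfap, the intermediate filament of astrocytes, had 327 to 508 CPM in NTG and 1022 to 2547 CPM in APP/PS1 mice and rose by 2.30 ± 0.25 log2 units (SE, adjusted p = 0.000649, edgeR). Vim, which encodes vimentin, rose by 2.02 ± 0.27 and Bcl3, an atypical IκB protein, by 2.73 ± 0.36 (both adjusted p = 0.00161, edgeR). Icam1, an adhesion molecule, rose by 1.34 ± 0.21 (SE, adjusted p = 0.00373, edgeR). Several of these genes are also markers of reactive astrocytes, and 4 of the 10 that rose, Gfap, Vim, Serpina3n and Cd44, were counted in both lists.

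**Figure D4:**
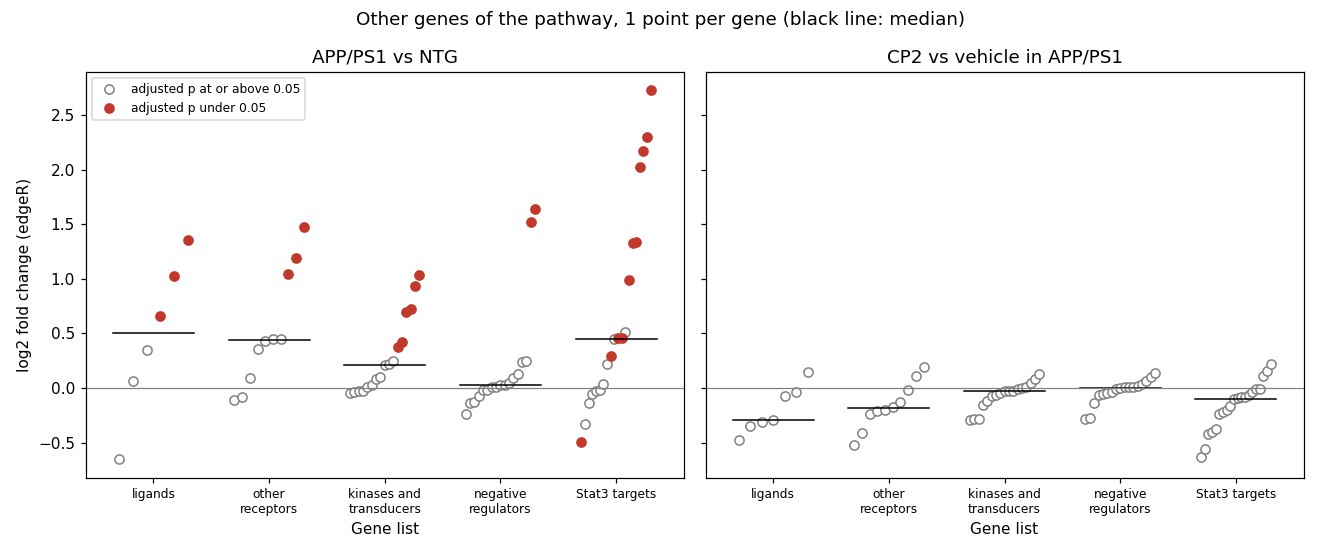
Log2 fold changes from edgeR (vertical axis) of the other pathway genes that passed the filter, grouped by list (horizontal axis), for APP/PS1 against NTG (left) and CP2 against vehicle in APP/PS1 (right), with 1 point per gene, filled red where the adjusted p was under 0.05; black lines give the list medians. On the left 25 points are red, with Bcl3 highest at 2.73, and on the right none is.

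Across the 14 mice, deviations from the group means of log2 CPM were compared between genes by Pearson's r, as a description. All genes of a mouse share its library depth and tissue composition, which differed between mice. The part of these in the r values was not tested. The spread among CP2-treated mice described above also enters these values. Among pairs of members, r was highest for Osmr and Socs3 (0.92, and 0.91 without mouse 16). Il6st and Stat3 (0.90 and 0.85) and Osmr and Csf3r (0.87 and 0.87) came next. Lifr followed Osmr less closely (0.30, and 0.048 without mouse 16). Some glial genes followed members as closely, such as Gfap with Il6st (0.93 and 0.88) and Csf1r with Csf3r (0.90 and 0.91). Others did not, such as Cst7, a marker of plaque-associated microglia, with Osmr (0.33 and 0.14). Among 16197 other genes the 4 most like Osmr were Emp2 (0.95), Pdpn (0.94), Aspg (0.93) and Syngr2 (0.93). Those most like Csf3r were Adam17 (0.94), which encodes the protease that sheds the IL-6 receptor, 4632428N05Rik (0.93), Gngt2 (0.91) and Qsox1 (0.91). Those most like Stat3 were Fmnl3 (0.95), Ptprz1 (0.95), Asap3 (0.95) and Ch25h (0.95). Socs3 was most like Sgsh (0.94), followed by Osmr itself, S100a16 (0.92) and Ctdsp1 (0.91). The order depended on mouse 16. Without it, the 4 genes named ranked 2, 3, 1 and 6 for Osmr (r at least 0.91), 2, 4, 11 and 7 for Csf3r (at least 0.90), 6, 11, 4 and 5 for Stat3 (at least 0.92) and 2, 7, 8 and 13 for Socs3 (at least 0.89).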

How the data were processed

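RNA from hippocampal and cortical tissue of 14 mice was made into TruSeq RNA v2 libraries, a kit that does not mark strand, and sequenced with paired ends of 101 bp. The authors aligned reads with TopHat2 to mm10 and obtained raw counts per Ensembl gene with featureCounts, in which reads spanning several genes added to each of them; the strand setting and the versions of these tools are not given in the sources used here. The deposited table also holds RPKM values, computed by the authors from gene length and a library total 1.18 to 1.24 times the sum of counts; these served only to compare levels between genes.

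Counts were tested with edgeR 4.0.16 (R 4.3.3), quasi-likelihood test, TMM factors and Benjamini-Hochberg adjustment, in fits of the 2 groups compared. A gene was tested when its robust CPM (DESeq2 1.42.0) was above 1 in every mouse of at least 1 group. CPM were scaled by TMM over all mice. Total counts ranged from 70548781 to 106235625. No replicate pair agreed within sampling noise (26 pairs, lowest chi-square per degree of freedom 9.87). Each sample is 1 mouse. The scripts were tested on simulated data.

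Named genes were all 10 members, up to 4 genes per pathway list with the smallest p among those passing in APP/PS1 against NTG, any list gene passing between CP2 and vehicle, tested ligands, and the 4 genes most like Osmr, Csf3r, Stat3 and Socs3. Genes named outside this rule (Osm and other untested ligands, list members that did not pass, Fosl2, Socs6, marker genes) were chosen after their values were seen. Some genes that the rule names are not reported here. The members and lists were chosen with earlier results of these data known. Alternatives were DESeq2, RLE factors, other filters, a fit of all 3 groups, limma-voom (limma 3.58.1) with sample weights, the share of ribosomal RNA as covariate and leaving out each mouse.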

Additional observations from a re-analysis of the deposited data

Results flagged for a closer look

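Of 30 sets of values looked at (10 genes in 3 groups), 1 held a mouse far from its group. Cntfr in APP/PS1 mouse 20 was 53.5 CPM, where the 4 other APP/PS1 mice lay between 58.4 and 59.8 CPM, a gap wider than Dixon's limit for 5 samples. Chance alone flags about 1 in 20 such sets. Without mouse 20 the log2 fold change of Cntfr against NTG was -0.20 (adjusted p = 0.0601, edgeR), compared with -0.22 with it.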

How the results depend on the processing

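Osmr and Csf3r kept the direction of their difference in all alternatives of the 3 comparisons. Both were chosen for their rise in these same data, so this is a description and no support for the difference. No paired analysis was possible because the groups share no replicate numbers.

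Leaving out 1 mouse at a time, between 3 and 6 of the 8 genes passed in APP/PS1 against NTG (4 with all mice, 6 without mouse 16) and between 2 and 4 in CP2-treated APP/PS1 against NTG (2 without NTG mouse 9 or 10 or treated mouse 24). For the pathway lists the counts were 15 to 36 (25 with all mice, 15 without NTG mouse 8, 36 without mouse 16) and 14 to 21 (23 with all mice; 14 without NTG mouse 8, 9 or 10, 15 without treated mouse 21 or 22). Between CP2 and vehicle these counts stayed at 0 in every alternative.

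Over all genes, DESeq2 called 1667 and limma-voom 1563 in APP/PS1 against NTG, where edgeR called 932, and leaving out 1 mouse gave 578 (without NTG mouse 9) to 1474 (without mouse 16). Between CP2 and vehicle DESeq2 called 23, the shared fit 0 and the ribosomal RNA covariate 2, against 1. In CP2-treated APP/PS1 against NTG DESeq2 called 1670 against 989, and leaving out 1 mouse gave 572 (without NTG mouse 9) to 1123.

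Some uncalled log2 fold changes close to 0 turned in sign. Lifr in APP/PS1 against NTG was 0.0059 with the ribosomal RNA covariate. Between CP2 and vehicle, Il6st was 0.0093, 0.031, 0.038 and 0.013 without mouse 18, 19, 23 and 24, Il6ra 0.052, 0.028, 0.039, 0.010 and 0.018 without mouse 17, 19, 20, 23 and 25, Cntfr -0.011 without mouse 20, and Csf2ra 0.0083 and Csf2rb 0.049 without mouse 19. Leaving out 1 mouse gave ranges of -0.10 to 0.038 for Il6st, -0.13 to 0.052 for Il6ra, -0.011 to 0.034 for Cntfr, -0.12 to 0.0083 for Csf2ra and -0.25 to 0.049 for Csf2rb. The cause of these changes was not tested.

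Cntfr in APP/PS1 against NTG lost its call without a filter on low counts (adjusted p = 0.0520, edgeR), and Il6ra in CP2-treated APP/PS1 against NTG lost it in 9 of 16 alternatives. Of the 19 ligands 12 stayed below the filter on low counts, which is set on CPM and so scaled for depth.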
